A study of Mus musculus with 38 samples.

Results

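Vitamin A travels in blood as retinol, is stored in cells as retinyl ester, and acts after oxidation to retinoic acid. The members described here are 9 genes of that route, *Stra6*, *Rbp4*, *Lrat*, *Rdh10*, *Aldh1a1*, *Aldh1a2*, *Aldh1a3*, *Cyp26b1* and *Rarb*, chosen by gene symbol from 19938 genes that had a probe set with a single symbol. Each of the 9 had exactly 1 such probe set. The values are log2 signals from 38 mouse thyroids, each hybridized to its own array. Among non-malignant thyroids, *Stra6* was higher and *Lrat* lower in *BRAF*(+) than in *BRAF*(-) mice. *Aldh1a2* was also higher in borderline lesions and carcinomas than in *BRAF*(-) asymptomatic thyroids.

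The mice were of the FVB/N background, and transgenic animals carried a human *BRAF*V600E cDNA with a 2HA tag behind the bovine thyroglobulin promoter, which directs it to follicular cells of the thyroid. A mouse counted as *BRAF*(+) when RNA of the transgene was found. *BRAF*(-) mice were non-transgenic apart from 1 mouse of the tg1 line, genotyped as transgenic without transgene RNA, which by its age was the 24-month-old benign lesion M_764. Most *BRAF*(+) mice came from the tg3 line, and most *BRAF*(-) mice from the tg2 line. By the paper's counts, both of these lines occurred among *BRAF*(+) and among *BRAF*(-) mice. The labels give no line for each mouse. Line was therefore not in the models, and its part beside that of *BRAF* status was not tested. The paper names a control with a wild-type *BRAF* transgene and serum TSH measurements as missing from its model. The groups were 5 *BRAF*(-) asymptomatic thyroids (AT) of mice 4 to 12 months old, 4 *BRAF*(-) benign hyperplastic lesions (BHL) at 6 to 24 months, 5 *BRAF*(+) AT at 7 to 11 months, 4 *BRAF*(+) BHL at 4 to 11 months, 10 borderline lesions (BL) at 4 to 21 months and 10 papillary thyroid carcinomas (PTC) at 6 to 21 months, BL and PTC being all *BRAF*(+). Each group held females and males, with 29 females and 9 males over all. RNA came from one part of the gland and histology from the other, so the tissue measured was a mixture of cells. In such bulk tissue, fewer cells of a type and less RNA per cell cannot be told apart.

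STRA6 is the membrane receptor that takes retinol from its plasma carrier RBP4, and LRAT esterifies retinol for storage, which also draws more of it into the cell. RDH10 oxidizes retinol to retinal, the ALDH1A enzymes oxidize retinal to retinoic acid, and CYP26B1 degrades it. Retinoic acid acts through nuclear receptors that pair with RXR, and RARB is both such a receptor and a classical target, since its promoter holds a response element made of a direct repeat with a spacer of 5 bases. Follicular cells, adipocytes, airway epithelium and stroma all use parts of this route.

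Promoter windows of 300 bases were taken from RefSeq (GRCm38.p6) and existed for 7 of the 9 members, in 12 windows. Not every window lies at the outermost start of its gene. Those of *Stra6* and *Rarb* lie inside the annotated genes, which span chr9:58063793-58154004 and chr14:16430839-17082331. The motif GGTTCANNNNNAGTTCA, searched on both strands, stood in 2 of all 32851 windows (0.00609%), of which 1 was that of *Rarb*. The repeats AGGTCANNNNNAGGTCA and AGGTCANNAGGTCA each stood in 3 windows (0.00913%), none of them a member's. The single site AGGTCA, with which both of these repeats overlap, was in 16.3% of all windows and in no member window. AGTTCA was in 14.0% of windows and in those of *Rarb* and *Stra6*, and GGTTCA was in 10.4% and among members in *Rarb*, where both overlap the repeat. Matches are descriptions of letters and not of bound sites. The windows of the receptor gene with the repeat and of the called genes are shown, with matched letters in capitals. They are *Lrat* at chr3:82903925-82904224 on the minus strand, the *Stra6* window at chr9:58133825-58134124 on the plus strand, which is 1 of 4 windows of that gene and the only one with a match, and *Rarb* at chr14:16575427-16575726 on the minus strand.
Lrat: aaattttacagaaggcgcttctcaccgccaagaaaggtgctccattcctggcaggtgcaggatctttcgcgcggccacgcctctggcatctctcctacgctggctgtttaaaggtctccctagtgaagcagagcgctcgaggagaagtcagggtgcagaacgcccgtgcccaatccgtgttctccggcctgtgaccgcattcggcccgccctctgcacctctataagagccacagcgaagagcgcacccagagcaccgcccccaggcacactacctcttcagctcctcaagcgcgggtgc
Stra6: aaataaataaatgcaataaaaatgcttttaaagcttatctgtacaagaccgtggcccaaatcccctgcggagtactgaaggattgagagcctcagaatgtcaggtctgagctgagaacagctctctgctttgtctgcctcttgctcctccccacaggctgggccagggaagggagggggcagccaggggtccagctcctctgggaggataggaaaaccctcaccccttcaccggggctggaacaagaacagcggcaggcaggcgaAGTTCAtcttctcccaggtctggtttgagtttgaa
Rarb: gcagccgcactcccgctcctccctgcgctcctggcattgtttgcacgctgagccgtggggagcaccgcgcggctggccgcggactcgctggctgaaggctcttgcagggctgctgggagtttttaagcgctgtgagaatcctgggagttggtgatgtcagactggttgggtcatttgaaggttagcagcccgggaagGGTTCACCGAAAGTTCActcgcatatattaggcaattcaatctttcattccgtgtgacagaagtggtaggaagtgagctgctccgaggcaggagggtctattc

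The label of the tissue was borne out by the markers of follicular cells. The thyroglobulin gene *Tg* lay at 13.3 to 13.7 over the 38 mice, and *Pax8*, a transcription factor of thyroid cells, at 11.0 to 11.9. Other follicular markers were less even, *Slc5a5* at 7.87 to 11.7, *Slc5a8* at 6.89 to 10.6 and *Tshr* at 8.52 to 10.6. Several markers of other tissues also varied more between mice than *Tg* and *Pax8*. *Ckm* of skeletal muscle ran from 5.60 to 12.0 and *Pth* of the parathyroid from a median of 3.37 up to 12.9. *Scgb1a1* of airway epithelium ran from 4.20 to 10.1 and *Adipoq* of adipocytes from 5.98 to 10.2. *Dcn* of fibroblasts (11.7 to 12.7) and *Pecam1* of endothelium (8.97 to 9.96) varied less. Array medians lay between 6.00 and 6.15, and no array was left out.

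The first question was how *BRAF* status relates to these genes in thyroids without malignancy. Among the 18 non-malignant thyroids, 2 of the 9 members passed the test at an adjusted p under 0.05, *Stra6* higher and *Lrat* lower in *BRAF*(+) mice, where 4.10% of all 35556 probe sets passed. By direction 2.19% of all probe sets were called higher and 1.91% lower. The test was limma's on *BRAF* status with lesion type and sex in the model, and p-values were adjusted over all probe sets by Benjamini and Hochberg's method. At an unadjusted p under 0.05 there were 5 members among 5812 probe sets. The median log2 difference was -0.09 over the 9 members and 0.02 over all named genes. The study itself placed *Stra6*, *Lrat*, *Rbp4* and *Aldh1a2* in a list chosen on these mice, so their directions there and here are not independent evidence.

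**Figure D1:**
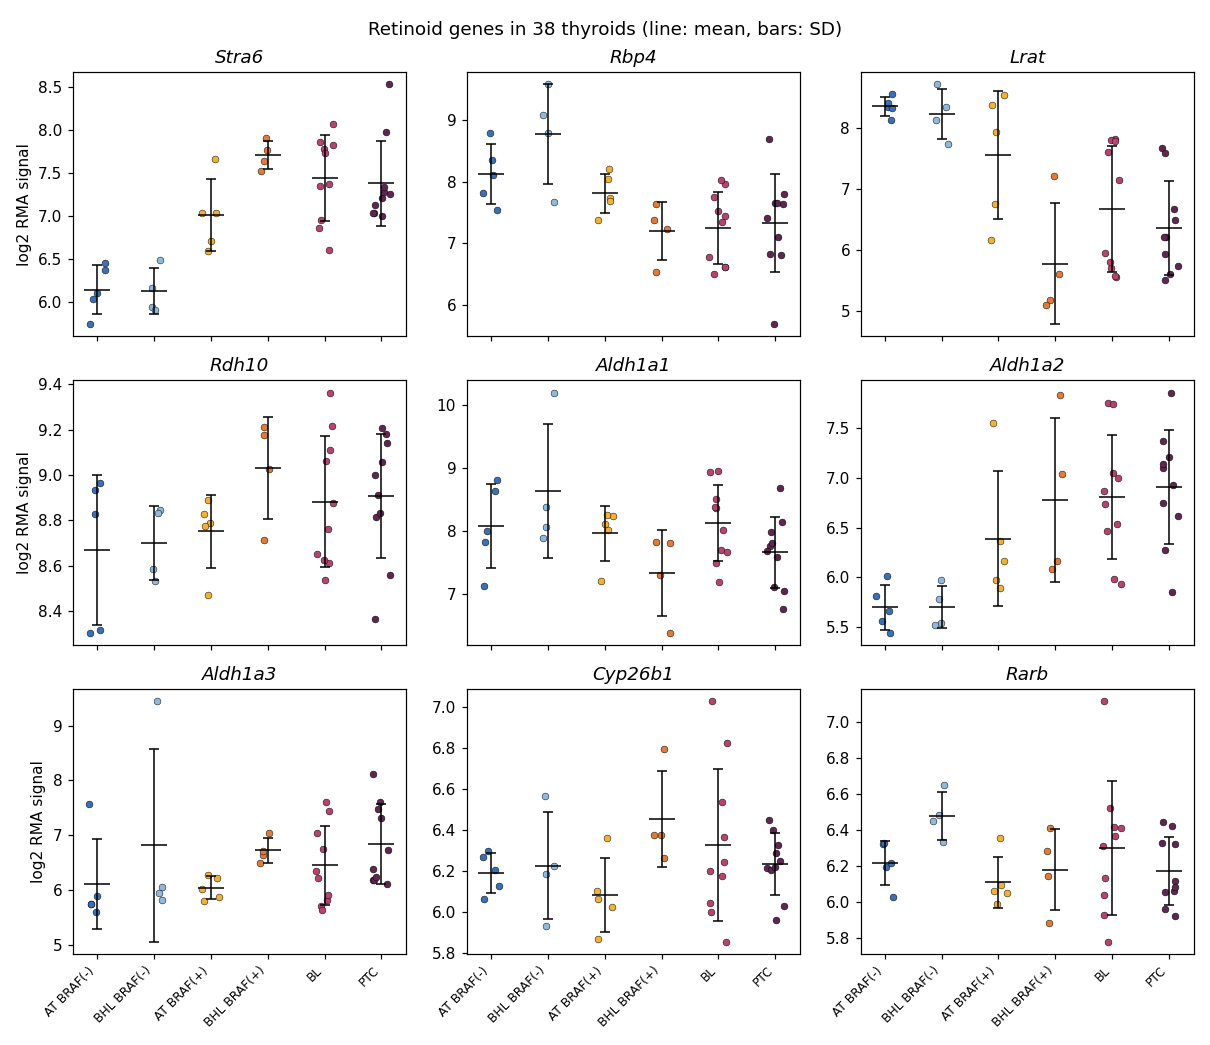
Log2 RMA signal (y axis, a separate range for each gene) of the 9 retinoid genes in the 6 groups (x axis), 1 point per mouse, with the group mean as a line and the SD as bars. All 29 *BRAF*(+) mice lie above the 9 *BRAF*(-) mice for *Stra6*, and *Lrat* lies at 8.13 to 8.55 in *BRAF*(-) AT but spreads from 5.55 to 7.82 in BL.

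Of the uptake genes, *Stra6*, the retinol receptor, separated *BRAF*(+) from *BRAF*(-) mice completely. Its log2 signal was 5.73, 6.03, 6.10, 6.37 and 6.45 in the 5 *BRAF*(-) AT and 5.90, 5.94, 6.16 and 6.48 in the 4 *BRAF*(-) BHL. It was 6.58, 6.71, 7.03, 7.04 and 7.66 in *BRAF*(+) AT and 7.52, 7.64, 7.76 and 7.91 in *BRAF*(+) BHL. The lowest, median and highest values were 6.60, 7.55 and 8.07 in the 10 BL and 6.99, 7.23 and 8.54 in the 10 PTC. Thus every one of 29 *BRAF*(+) mice stood above every one of 9 *BRAF*(-) mice, as did those of 0.201% of the 19938 named genes. The nearest values across that line were 6.48 in a *BRAF*(-) BHL and 6.58 in a *BRAF*(+) AT. The fitted difference between non-malignant *BRAF*(+) and *BRAF*(-) mice was 1.21 ± 0.16 on the log2 scale (SE), a fold of 2.31, with an adjusted p of 0.000398. The call held without each single mouse in turn, at 1.14 to 1.29.

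*Rbp4*, which encodes the plasma carrier of retinol, did not pass the test. Its values were 7.55, 7.81, 8.11, 8.35 and 8.80 in *BRAF*(-) AT and 7.67, 8.78, 9.08 and 9.58 in *BRAF*(-) BHL, against 7.38, 7.69, 7.74, 8.04 and 8.20 in *BRAF*(+) AT and 6.54, 7.24, 7.38 and 7.65 in *BRAF*(+) BHL. In BL the lowest, median and highest were 6.50, 7.39 and 8.02, and in PTC 5.69, 7.52 and 8.69. The groups overlapped except within BHL, where all 4 *BRAF*(+) mice were below the 4 *BRAF*(-) mice, as was true of 6.2% of named genes. The difference with *BRAF* status was -0.86 ± 0.27 (adjusted p = 0.092).

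*Lrat*, the esterifying enzyme, was high and even in *BRAF*(-) thyroids and uneven in *BRAF*(+) ones. It lay at 8.13, 8.32, 8.35, 8.41 and 8.55 in the *BRAF*(-) AT mice, and the *BRAF*(-) BHL mice had 7.74, 8.13, 8.35 and 8.72. In *BRAF*(+) AT the signals were 6.15, 6.75, 7.92, 8.38 and 8.53, and in *BRAF*(+) BHL they were 5.09, 5.17, 5.60 and 7.22. Thus the *BRAF*(+) AT mice M_523 (8.53) and M_779 (8.38) were within the *BRAF*(-) range, and M_945 (7.92) was within that of BHL. Of the *BRAF*(+) non-malignant mice, 6 of 9 were below every *BRAF*(-) mouse, and the share of all genes with such a count was not taken. The SD between mice was 0.15 in *BRAF*(-) AT and 1.05 in *BRAF*(+) AT. In BHL it was 0.41 in *BRAF*(-) and 0.99 in *BRAF*(+) mice. The difference in spread was not tested. The *BRAF*(+) males M_523 (AT, 8.53) and M_958 (BHL, 7.22) had the highest *Lrat* of their groups. M_523 was 10 months old. M_958 was 4 months old, where the females of its group were 10 or 11. Non-malignant *BRAF*(+) females ranged from 5.09 to 8.38. Over females only the difference was -1.86 ± 0.38 (adjusted p = 0.0185), and whether it varies with sex was not tested. The difference with *BRAF* status was -1.46 ± 0.35, a fold of 2.75 lower in *BRAF*(+) mice, with an adjusted p of 0.0232. The call was narrowly lost without M_764 (-1.34, adjusted p = 0.0519) or without M_930 (-1.37, adjusted p = 0.0552), both *BRAF*(-) BHL, and with age in the model (-1.35, adjusted p = 0.0677).

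The lesions continued this spread. The BL values were 5.55, 5.57, 5.70, 5.80, 5.94, 7.14, 7.61, 7.79, 7.80 and 7.82, with no mouse between 5.94 and 7.14. The BL males M_772 (7.14) and M_80 (7.79) were above that gap, as were the females M_1005, M_649 and M_416. M_772 was 4 months old and M_80 was 11, and these females were 10 to 21. In PTC the lowest, median and highest were 5.50, 6.21 and 7.66. The PTC males M_700 (7.59) and M_686 (7.66) were the highest of that group. They were 6 and 7 months old, and the next highest was the female M_884 (6.67), also 7 months old. The paper places the youngest age class of its PTC in the tg2 line. The parts of sex, age and line in these values were not tested. All 10 BL and all 10 PTC were below the 5 *BRAF*(-) AT, and all PTC were also below the *BRAF*(-) BHL. The same complete separation below *BRAF*(-) AT was seen in 1.03% of named genes for BL and in 3.33% for PTC. For PTC below the *BRAF*(-) BHL, the share of all genes was not taken.

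Of the oxidizing enzymes, *Aldh1a2* (RALDH2), which makes retinoic acid, came nearest to the threshold. It was 5.44, 5.56, 5.66, 5.81 and 6.01 in *BRAF*(-) AT and 5.52, 5.54, 5.78 and 5.97 in *BRAF*(-) BHL. It was 5.89, 5.97, 6.16, 6.37 and 7.56 in *BRAF*(+) AT and 6.08, 6.17, 7.04 and 7.83 in *BRAF*(+) BHL. In BL it reached from 5.93 over a median of 6.81 to 7.75, and in PTC from 5.85 over 7.02 to 7.86. In all, 24 of 29 *BRAF*(+) mice stood above every *BRAF*(-) mouse and none below. The share of all genes with such a partial separation was not counted, so this is not shown to be particular to *Aldh1a2*. The non-malignant difference was 0.83 ± 0.23 with an adjusted p of 0.0524.

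*Aldh1a1* and *Aldh1a3*, the sister enzymes, did not pass in any comparison as fitted over all probe sets and mice. *Aldh1a1* ranged from 7.13 to 10.2 in non-malignant *BRAF*(-) mice and from 6.38 to 8.25 in *BRAF*(+) ones, a difference of -0.63 ± 0.34 (adjusted p = 0.393). Within BHL its difference was -1.31 ± 0.44 (adjusted p = 0.0707), all 4 *BRAF*(+) mice lay below the 4 *BRAF*(-) mice (as for 6.2% of all genes), and it passed with the flat filter (adjusted p = 0.0269), over probe sets with 1 symbol (adjusted p = 0.049), without M_701 (adjusted p = 0.0427) and without M_764 (adjusted p = 0.0459). Without M_930 it was at -0.76 (adjusted p = 0.378). Its highest value, 10.2, was in the *BRAF*(-) BHL M_930, which also had the highest airway score of all mice. *Aldh1a3* was at 5.60 to 6.06 in 7 of the 9 non-malignant *BRAF*(-) mice, at 7.57 in the AT M_524 and at 9.45 in the BHL M_946, and it was at 5.81 to 7.04 in non-malignant *BRAF*(+) mice. Without M_946 the difference changed sign from -0.09 to 0.31, and neither value passed the test.

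*Rdh10*, the enzyme of the first oxidation, was nearly level across the groups. Its means were 8.67 ± 0.33 (SD, n = 5) in *BRAF*(-) AT, 8.70 ± 0.16 (n = 4) in *BRAF*(-) BHL, 8.75 ± 0.16 (n = 5) in *BRAF*(+) AT, 9.03 ± 0.23 (n = 4) in *BRAF*(+) BHL, 8.88 ± 0.29 (n = 10) in BL and 8.91 ± 0.28 (n = 10) in PTC. The fitted difference within BHL was 0.33 ± 0.14 (adjusted p = 0.182). *Cyp26b1*, the degrading enzyme, had group means of 6.08 to 6.45 and a difference with *BRAF* status of 0.03 ± 0.10 (adjusted p = 0.939). *Rarb*, the receptor with the response element shown above, had means of 6.11 to 6.48 and a difference of -0.19 ± 0.08 (adjusted p = 0.266). The group ranges of both genes overlapped throughout the *BRAF* comparison.

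**Figure D2:**
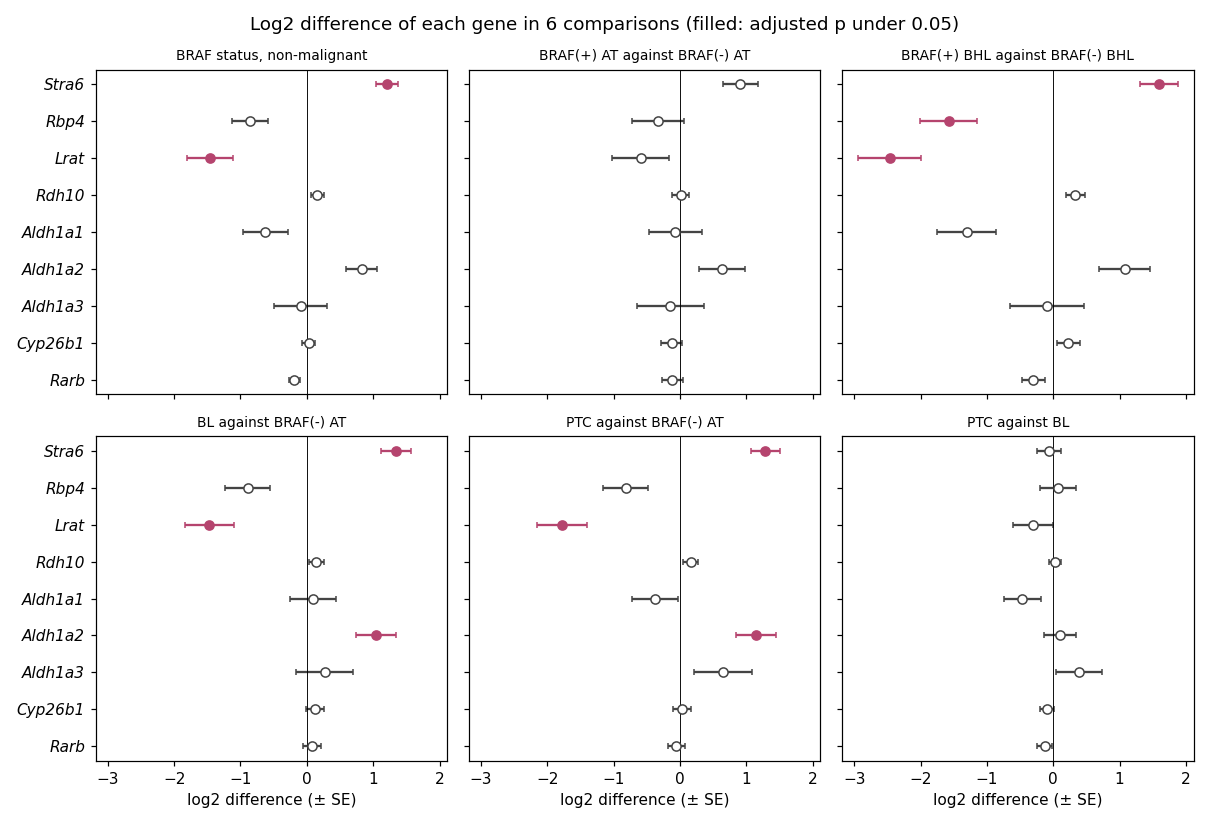
Log2 difference (x axis) with its SE for each of the 9 genes (y axis) in 6 comparisons by limma, filled where the adjusted p is under 0.05. *Stra6* is at 0.91 to 1.59 in the first 5 panels and at -0.06 between PTC and BL, while *Lrat* is at -0.59 in AT, at -2.46 in BHL and at -0.31 between PTC and BL.

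The same contrast was then taken within each lesion type, in a model of all 38 mice with the 6 groups and sex. In AT, no member passed and 0.256% of probe sets did; 1 member was under an unadjusted p of 0.05 among 3438 probe sets. *Stra6* was at 0.91 ± 0.26 (adjusted p = 0.14) and *Lrat* at -0.59 ± 0.43 (adjusted p = 0.718). In BHL 3 members passed where 6.62% of probe sets did. *Lrat* was lower by a fold of 5.51 (-2.46 ± 0.48, adjusted p = 0.00126), *Stra6* higher by a fold of 3.01 (1.59 ± 0.28, adjusted p = 0.000625) and *Rbp4* lower by a fold of 2.98 (-1.58 ± 0.43, adjusted p = 0.0198). The call of *Rbp4* was lost in 3 of the 8 fits that left out a BHL mouse (adjusted p up to 0.107).

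Whether the effect in BHL differed from that in AT was tested as an interaction. No probe set passed, so the larger values in BHL are not shown to differ from those in AT; at an unadjusted p under 0.05 there were 3 members among 3616 probe sets. The largest member difference was that of *Lrat*, -1.87 ± 0.64 (adjusted p = 0.331). Between *BRAF*(-) BHL and *BRAF*(-) AT no probe set passed either, 1563 were under an unadjusted p of 0.05 and none of these was a member. The members' differences there lay between -0.04 and 0.65, so that hyperplasia without the transgene RNA came with no called change of a retinoid gene.

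The lesions were set against *BRAF*(-) AT to describe the members in borderline and malignant thyroids. In BL 3 members passed where 11.5% of probe sets did, namely *Stra6* (1.35 ± 0.22, adjusted p = 0.000183), *Aldh1a2* (1.05 ± 0.30, adjusted p = 0.0217) and *Lrat* (-1.47 ± 0.37, adjusted p = 0.0101). In PTC the called members were again these, where 18.8% of probe sets passed, with *Stra6* at 1.29 ± 0.22 (adjusted p = 0.000143), *Aldh1a2* at 1.15 ± 0.30 (adjusted p = 0.00721) and *Lrat* at -1.78 ± 0.37 (adjusted p = 0.0011). Both comparisons share the 5 *BRAF*(-) AT mice. Without the AT mouse M_940, *Aldh1a2* in BL was at 0.98 (adjusted p = 0.0771), and over females only it was at 1.17 (adjusted p = 0.0869). With the scores of the 3 muscle and fat lists as covariates, *Aldh1a2* was at 0.84 in BL (adjusted p = 0.184) and 0.93 in PTC (adjusted p = 0.11). *Rbp4* was at -0.89 ± 0.34 in BL and -0.82 ± 0.34 in PTC (adjusted p = 0.0782 and 0.084).

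Between PTC and BL no member and no probe set passed, with 774 probe sets and no member under an unadjusted p of 0.05. The members' differences lay between -0.46 ± 0.28 for *Aldh1a1* and 0.39 ± 0.35 for *Aldh1a3*, and *Stra6* was at -0.06 ± 0.18. Against *BRAF*(+) AT, 1 member was called in PTC where 14.9% of probe sets were, *Lrat* at -1.19 ± 0.37 (adjusted p = 0.028). This call was lost without M_523 (-1.15, adjusted p = 0.0647), without M_779 (-0.93, adjusted p = 0.13) and without M_945 (-1.04, adjusted p = 0.0765) of the AT group, and over females only (adjusted p = 0.0659).

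Ordered by mean level, *Stra6* ran from *BRAF*(-) BHL (6.12) and *BRAF*(-) AT (6.14) over *BRAF*(+) AT (7.00), PTC (7.38) and BL (7.44) to *BRAF*(+) BHL (7.71). *Lrat* ran from *BRAF*(+) BHL (5.77) over PTC (6.36), BL (6.67), *BRAF*(+) AT (7.55) and *BRAF*(-) BHL (8.23) to *BRAF*(-) AT (8.35). *Aldh1a2* ran from both *BRAF*(-) groups (5.70) over *BRAF*(+) AT (6.39), *BRAF*(+) BHL (6.78) and BL (6.81) to PTC (6.91). Of the 45 pairs of neighbouring groups over the 9 genes, none differed at an adjusted p under 0.05. The smallest adjusted p, 0.14, was the step of *Stra6* from *BRAF*(-) to *BRAF*(+) AT.

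The wider route was read from 7 lists with 75 measured of 81 genes, none of them a member. With *BRAF* status 2 of the 75 were higher and 6 lower, where 2.19% of all probe sets were called higher and 1.91% lower. The median log2 difference was -0.02 against 0.02 over all named genes. A single called gene in a list is not shown to exceed these shares. Among 9 measured genes of retinyl ester synthesis and hydrolysis 3 were lower, at a list median of -0.62. They were the carboxylesterase genes *Ces1d* (-0.77 ± 0.14, adjusted p = 0.00507) and *Ces1f* (-0.84 ± 0.19, adjusted p = 0.0149) and *Dgat1*, an acyltransferase best known for triglyceride synthesis (-0.48 ± 0.13, adjusted p = 0.0489). Several genes of this list, *Lipe* among them, are also used by adipocytes, whose score was lower in *BRAF*(+) mice, as given below.

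Of 10 carriers and uptake genes 1 was higher, *Lrp2* (megalin), an endocytic receptor of thyroid and kidney that takes up thyroglobulin as well as RBP4. Its group means were 8.80 ± 0.19 (SD, n = 5) in *BRAF*(-) AT, 9.18 ± 0.15 (n = 5) in *BRAF*(+) AT and 9.66 ± 0.20 (n = 10) in PTC. The difference with *BRAF* status was 0.56 ± 0.10 (adjusted p = 0.00297). Of 20 oxidoreductases 1 was higher, *Akr1b8*, an aldo-keto reductase (0.80 ± 0.17, adjusted p = 0.0133), and 1 lower, *Rdh11*, a retinal reductase (-0.42 ± 0.10, adjusted p = 0.0289).

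Of 10 receptors and cofactors 1 was lower, *Rxrg*, the gamma form of the partner receptor (-0.72 ± 0.19, adjusted p = 0.0365). Of 17 target genes of retinoic acid 1 was lower, the homeobox gene *Meis2* (-0.76 ± 0.17, adjusted p = 0.0158), at a list median of -0.03. No gene was called among 6 of retinoic acid synthesis and clearance or 3 of carotenoid cleavage. In PTC against *BRAF*(-) AT, 6 of the 75 genes were higher and 14 lower, where 18.8% of all probe sets passed. Of the target genes 2 were higher there, *Tgm2* (0.95 ± 0.20) and *Egr2* (0.70 ± 0.18), and 4 lower, *Meis2* (-0.83 ± 0.17), *Cdx1* (-0.44 ± 0.11), *Rarres2* (-0.62 ± 0.19) and *Foxa2* (-0.37 ± 0.12).

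**Figure D3:**
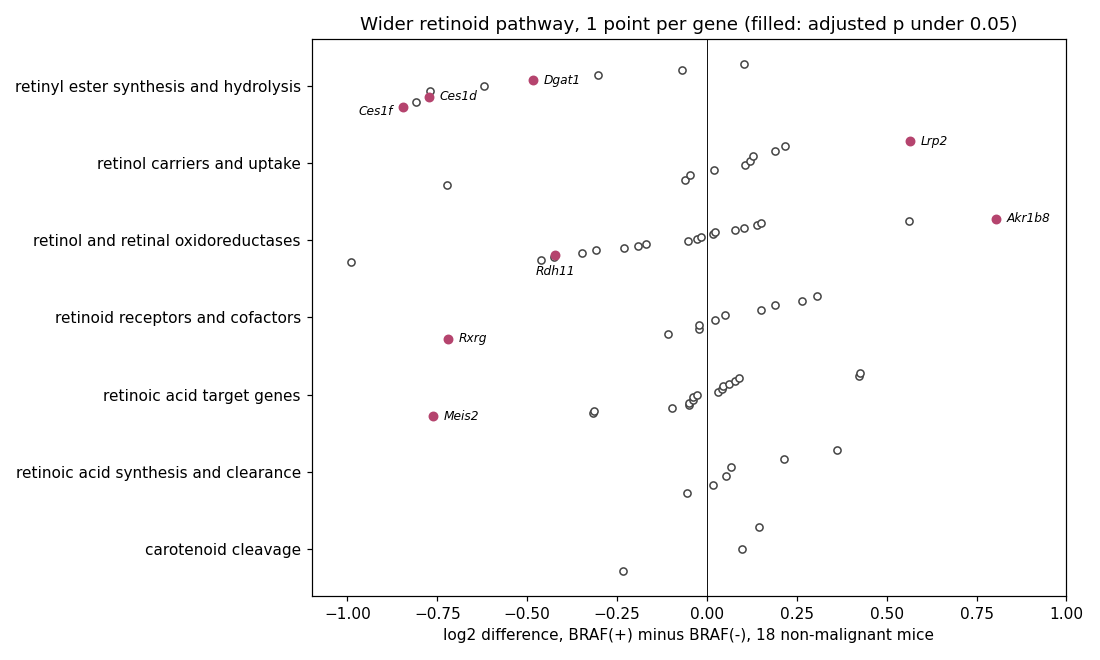
Log2 difference between *BRAF*(+) and *BRAF*(-) mice among 18 non-malignant thyroids (x axis) for 75 genes in 7 lists of the wider retinoid route (y axis), 1 point per gene, filled and named where the adjusted p is under 0.05. The named genes are 2 higher and 6 lower, and 3 of the lower ones are in the list of retinyl ester synthesis and hydrolysis. Over all probe sets 2.19% were called higher and 1.91% lower.

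Several members varied from mouse to mouse along with markers of a cell type. Marker scores were formed as the mean of a list's log2 values, each gene centred over the 38 mice, and the correlations are descriptions over mice that share groups. *Lrat* went with the score of thyroid follicular cells (r = 0.88 over 38 mice, and 0.79 once the 6 group means were taken out). *Rbp4* went with adipocytes (r = 0.92 and 0.87) and *Aldh1a1* with airway epithelium (r = 0.80 and 0.75). *Aldh1a2* went with fibroblasts (r = 0.67 and 0.67) and macrophages (r = 0.65 and 0.46), and against follicular markers (r = -0.60 and -0.35). *Rdh10* went with fibroblasts (r = 0.62 and 0.58) and against follicular markers (r = -0.66 and -0.57).

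For *Aldh1a3* the closest list was the parathyroid one (r = 0.64 and 0.67), in which only *Pth* and *Casr* were measured. In the 5 mice with the highest *Pth* (12.2 to 12.9), M_524, M_946, M_527, M_359 and M_884, *Aldh1a3* was at 7.57, 9.45, 7.61, 7.31 and 8.11. It was however 5.95 in M_930, where *Pth* was 11.4, and 5.91 in M_649, where it was 11.7, and it was 7.44 in the BL M_414, where *Pth* was 3.20. M_946 also had the highest T cell score of its group, 3.46. *Stra6* ran against the brown adipocyte (r = -0.76 and -0.52), adipocyte (r = -0.72 and -0.47) and follicular scores (r = -0.63 and -0.31), less closely once the group means were taken out.

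**Figure D4:**
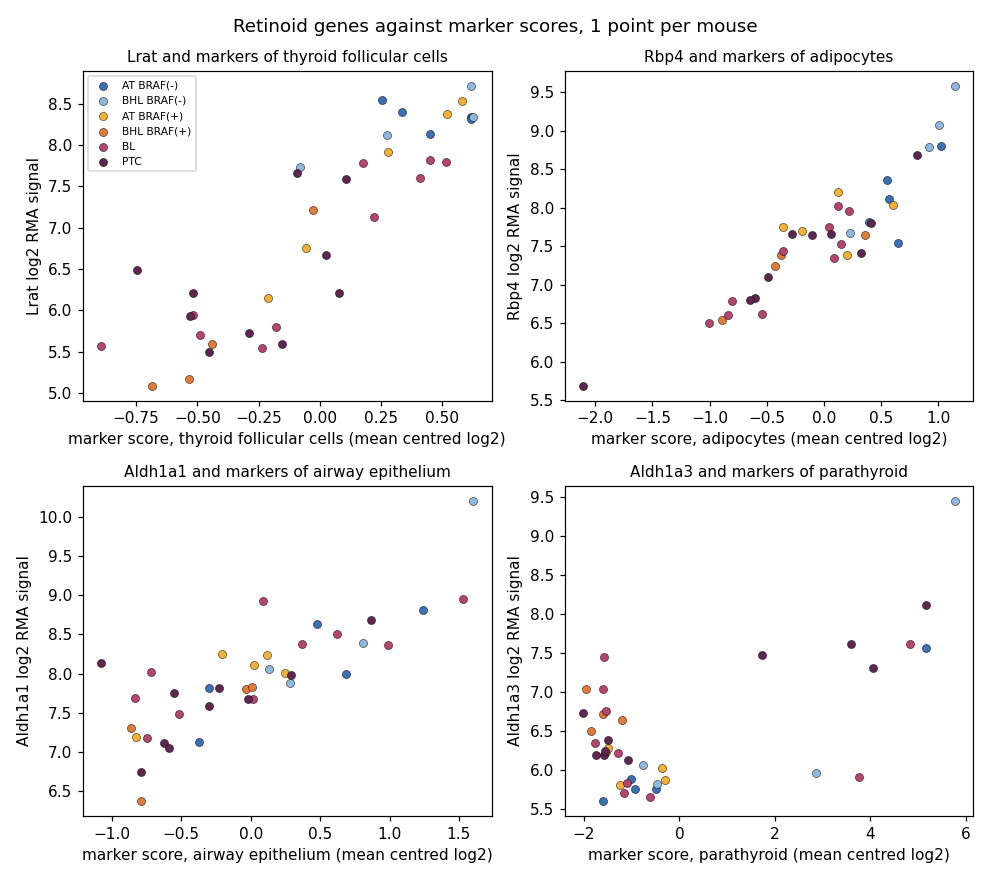
Log2 RMA signal of 4 genes (y axes) against the marker score most like them (x axes, mean centred log2), 1 point per mouse, coloured by group. *Lrat*, *Rbp4* and *Aldh1a1* run along their scores across groups, while the highest *Aldh1a3* values are in mice with high parathyroid scores, except 7.44 in M_414, and 2 mice with high scores have low *Aldh1a3*.

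Several of these scores also differed in range between non-malignant *BRAF*(-) and *BRAF*(+) mice, though no score was itself tested. Over all probe sets, 2.19% were called higher and 1.91% lower with *BRAF* status. The adipocyte score was 0.23 to 1.15 in non-malignant *BRAF*(-) mice and -0.89 to 0.60 in *BRAF*(+) ones, with 4 of 9 measured markers called lower, among them *Adipoq* (-0.99 ± 0.19) and *Plin1* (-0.81 ± 0.22). The follicular score was -0.08 to 0.63 and -0.69 to 0.58, with 4 of 12 markers lower, namely *Slc5a5*, *Iyd*, *Dio1* and *Slc5a8*. The markers not called lay between -0.54 (*Duox2*) and 0.35 (*Nkx2-1*), with *Tg* at -0.07 and *Pax8* at -0.03. A lower follicular score thus need not mean fewer follicular cells. The airway score was -0.37 to 1.60 and -0.87 to 0.24, with 1 of 6 lower (*Scgb1a1*, -2.29 ± 0.46). The fibroblast score was -0.55 to 0.11 and -0.82 to 0.73, with 1 of 12 higher. The muscle score was -0.89 to 3.53 and -0.90 to -0.64, with none of 17 called, and the parathyroid score was -1.59 to 5.77 and -1.96 to -0.31, with none of 2. No defining marker was at 0 on this scale, since array background keeps every signal above it.

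With the adipocyte score in the model, the difference of *Rbp4* with *BRAF* status was 0.17 ± 0.26 in place of -0.86, and *Stra6* was at 0.81 ± 0.21 (adjusted p = 0.16). With the follicular score in its place, *Lrat* was at -0.35 ± 0.24 (adjusted p = 0.724) and *Stra6* at 0.98 ± 0.20 (adjusted p = 0.0859). With muscle, adipocyte and brown adipocyte scores together, *Lrat* was at -0.93 ± 0.53 and *Stra6* at 0.83 ± 0.25 (adjusted p = 0.274). No member was called in these 3 models. With the fibroblast score the members called were *Stra6* (1.18 ± 0.15), *Lrat* (-1.35 ± 0.22) and *Aldh1a2* (0.76 ± 0.17, adjusted p = 0.0164). The macrophage score had a mean of 0.10 in non-malignant *BRAF*(+) mice against -0.41 in *BRAF*(-) ones. No model with that score was fitted. The adipocyte, brown adipocyte, muscle and follicular scores all had lower means in the non-malignant *BRAF*(+) mice. Their parts and that of *BRAF* status in the differences thus cannot be told apart in these mice.

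**Figure D5:**
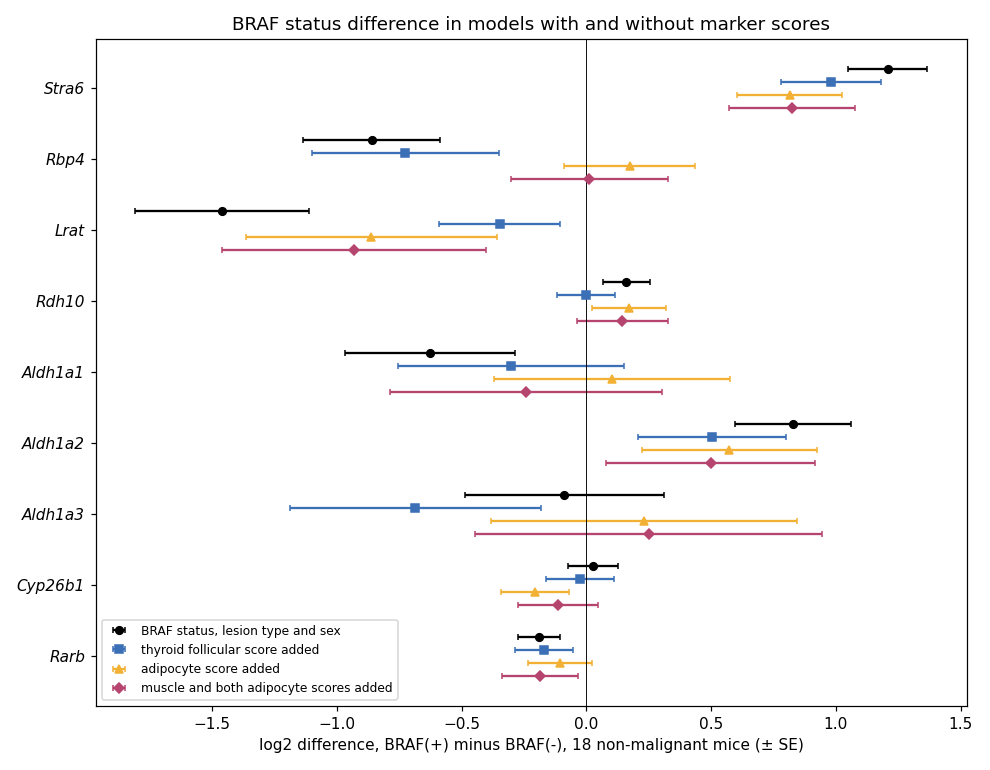
Log2 difference between *BRAF*(+) and *BRAF*(-) mice among 18 non-malignant thyroids (x axis, with SE) for each gene (y axis) in the model with lesion type and sex and in the models with marker scores added. *Stra6* stays between 0.81 and 1.21, *Lrat* moves from -1.46 to -0.35 with the follicular score, and *Rbp4* moves from -0.86 to 0.17 with the adipocyte score.

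For both members called with *BRAF* status, the 3 genes with the most similar pattern over 38 mice were looked up. For *Lrat* they were *Fmn2* (r = 0.95, and 0.90 with group means taken out), *Slc5a8*, a transporter gene that is also on the follicular list (0.94 and 0.89), and *Slc25a16* (0.94 and 0.88). For *Stra6* they were *Rprm* (0.87 and 0.61), *Tmem108* (0.86 and 0.58) and *Sec14l2* (0.86 and 0.67). Between the members, *Lrat* ran against *Rdh10* (r = -0.73 and -0.70), *Aldh1a2* (r = -0.75 and -0.56) and *Stra6* (r = -0.68 and -0.25). The last of these was thus weaker within groups than over all mice.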

How the data were processed

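Thyroid RNA of 38 mice was measured on GeneChip arrays, 1 per mouse. The labels name an amplification kit for arrays of the 3' type. The deposited values are log2 signals that the authors normalized by RMA, per the submitters' processing notes, which give no version. Depth is not defined for arrays, and the number of mice limits the precision. Of 35556 probe sets 21789 had 1 symbol in the platform annotation, 1621 had several and 12146 were unlisted; a gene with several was read from that with the highest mean.

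Fits used limma 3.58.1 in R 4.3.3 (lmFit and eBayes) on all probe sets, with Benjamini and Hochberg's adjustment and a threshold of 0.05. *BRAF* status was fitted over 18 non-malignant mice with lesion type and sex, and other contrasts in a model of 6 groups and sex over 38 mice. The fits were checked on simulated data. Named genes were the 9 members, up to 4 genes per list called with *BRAF* status (by p), every target gene called in PTC (chosen after its values were seen), and the 3 most similar genes of each called member. Members and lists were chosen with earlier results of these data known. Alternatives were the flat filter (1.5-fold from the median in 20% of mice), probe sets with 1 symbol, median centring, intensity trend, array weights, age, no sex term, females only, marker scores, no lesion type, other models and leaving out each mouse. The follicular score and the adipocyte score alone were added after seeing the data. Gene lists came from textbook knowledge.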

Additional observations from a re-analysis of the deposited data

Results flagged for a closer look

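Within each group of a gene, the gap of the highest or lowest mouse to its nearest neighbour was set against the group's range, and 6 of 54 such groups held a mouse that stood apart by Dixon's criterion, which chance alone meets in about 1 of 20. *Aldh1a3* was at 9.45 in the *BRAF*(-) BHL M_946 against 6.06 in the next mouse, and at 7.57 in the *BRAF*(-) AT M_524 against 5.89. *Pth* was 12.9 in both of these mice. In *BRAF*(+) AT, *Aldh1a2* was at 7.56 in M_1003 against 6.37 in the next mouse, and *Aldh1a1* at 7.19 in M_948 against 8.01. In the same group *Rarb* was at 6.35 in M_948 against 6.09, and *Rdh10* at 8.47 in M_779 against 8.78. M_1003 had the lowest *Lrat* of its group (6.15) beside its high *Aldh1a2*.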

How the results depend on the processing

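Each comparison was recomputed under the alternatives, and the number of members called, out of 9, is given here. For *BRAF* status the 2 called members became 4 with the flat filter, which tests 4388 probe sets, and 4 in the model of all 38 mice (*Rbp4* and *Aldh1a2* joining *Lrat* and *Stra6*). They became 1 (*Stra6*) with age or with no lesion type, and 0 with the adipocyte score, the follicular score or the muscle and adipocyte scores. With these last scores 9 probe sets of the whole table were called, against 1458. In BHL the 3 became 5 with the flat filter and 0 with the muscle and adipocyte scores, which left 1 of 3 in BL (*Stra6*) and 2 of 3 in PTC (*Lrat* and *Stra6*). Over females only *Aldh1a2* was not called in BL, which left 2 of 3. *Lrat* in PTC against *BRAF*(+) AT fell to 0 called members with no sex term, over females only, with the fibroblast score and with the muscle and adipocyte scores. Leaving out each mouse gave 1 to 3 called members for *BRAF* status, 2 to 4 in BHL, 2 to 3 in BL, 3 to 4 in PTC and 0 to 1 in PTC against *BRAF*(+) AT. The causes of these moves were not tested, except that the flat filter adjusts over fewer probe sets.

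Signs turned for members that had not passed the test. With the adipocyte score *Rbp4* was at 0.17, *Aldh1a1* at 0.10, *Aldh1a3* at 0.23 and *Cyp26b1* at -0.21. With the muscle and adipocyte scores *Rbp4* was at 0.012 for *BRAF* status, 0.027 in BL and 0.074 in PTC, *Aldh1a3* at 0.25 and *Cyp26b1* at -0.11. *Cyp26b1* was at -0.038 with array weights, and with the follicular score it was at -0.025 and *Rdh10* at -0.0010. Leaving out each mouse, *Aldh1a3* ranged from -0.22 to 0.31 and *Cyp26b1* from -0.027 to 0.066. No called member changed sign under any alternative run. The flat filter removed *Cyp26b1*, *Rarb* and *Rdh10*. Taking another probe set of a gene gave no value, since each member has 1. No paired analysis was possible because mouse numbers are not shared between groups.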

Other observations

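Further marker lists were read for *BRAF* status in the 18 non-malignant mice, where 2.19% of all probe sets were called higher and 1.91% lower. Of 8 genes of dendritic and MHC class II cells 2 were higher in *BRAF*(+) thyroids, the integrin gene *Itgax* (1.09 ± 0.27, adjusted p = 0.0297) and the invariant chain *Cd74* (0.85 ± 0.23, adjusted p = 0.0482). Of 8 genes of pericytes and stellate cells, the latter of which store vitamin A in other organs, 1 was higher. It was *Pdgfrb* (0.40 ± 0.10, adjusted p = 0.0304), which is also on the fibroblast list. Of 5 brown adipocyte genes 1 was lower, *Ppargc1a* (-0.50 ± 0.12, adjusted p = 0.0232). By limma no gene was called among 12 of macrophages, 9 of endothelium, 7 of T cells, 5 of B cells, 5 of C cells or 8 of squamous epithelium. The 12 macrophage genes however lay between 0.013 (*Marco*) and 0.68 (*Fcgr3*, adjusted p = 0.0771), at a list median of 0.50. The list median was -0.03 for endothelium and -0.04 for T cells. *Lrat* ran against the pericyte and stellate list over the mice (r = -0.72 over 38 mice, and -0.71 with the group means taken out).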
